A study of Homo sapiens with 9 samples.

Results

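SH3PXD2B, the gene of the scaffold protein Tks4, was examined together with 8 other genes of the invadopodium in SH-Sy5y cells that received a mimic of the microRNA miR-1229-3p. The 8 others were SH3PXD2A, CTTN, SRC, NCK1, NCK2, WASL, MMP14 and MMP2. All 9 are listed Tks adaptor and invadopodia genes that the count table holds, out of 14943 genes in all, and all 9 had passed the filter on low counts. SH3PXD2B had been singled out for its lower level after the mimic, so its values are given as a description with no test. SH-Sy5y is an established human neuroblastoma line, and each of the 3 groups held 3 libraries of polyadenylated RNA taken 48 h after transfection with a lipid reagent. Control cells (Ctrl.) received 40 pmol of a negative control oligonucleotide. The 10 nM cells received 20 pmol of the mimic and 20 pmol of the control oligonucleotide, and the 20 nM cells 40 pmol of the mimic and none of the control oligonucleotide. Every group therefore carried the reagent and the same amount of RNA oligonucleotide, while the 20 nM group alone lacked the control oligonucleotide. Both concentrations were compared with the same 3 Ctrl. libraries. The labels do not state whether the replicates were separate cultures, so the p-values measure only the spread between these libraries, which may be technical. In bulk RNA, fewer cells that express a gene and less RNA per cell cannot be told apart.

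Invadopodia are actin-rich protrusions with which invasive cells dissolve the matrix around them. The Tks adaptors bind membrane lipids through a PX domain, are substrates of the kinase SRC and gather the actin machinery (cortactin, NCK adaptors and N-WASP) and the proteases at one place. The membrane protease MMP14 cleaves matrix and activates the secreted proenzyme of MMP2 with the help of TIMP2. The Tks adaptors are also known for roles in neural crest migration, the lineage from which neuroblastoma arises.

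A microRNA pairs with messages mainly through its seed, bases 2 to 8. The mature sequence is shown because the matches are read from it. It has 23 bases, lies at chr5:179798278-179798300 on the minus strand (RefSeq, GRCh38.p14), and its seed is in capitals.
hsa-miR-1229-3p: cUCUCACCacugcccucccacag
The 4 kinds of match searched, on the message strand of the longest annotated 3′ UTR of each gene (GENCODE 44), were GGTGAGAA (the 8-mer), GGTGAGA (the 7-mer to bases 2 to 8), GTGAGAA (the 7-mer to bases 2 to 7 with an A) and GTGAGA (the 6-mer), and each stretch was counted once, as its longest kind. The 3′ UTR of SH3PXD2B, 4870 bases long, held an 8-mer, a 7-mer and a 6-mer. That of SH3PXD2A, 7789 bases long, held 2 8-mers, 5 7-mers and 3 6-mers. The 7-mer and 8-mer of SH3PXD2B and the 8-mers of SH3PXD2A are printed as DNA with the match in capitals, since these 2 members were lower than Ctrl. in every 20 nM library. They lie on the minus strand at chr5:172335513-172335519, chr5:172333606-172333613, chr10:103596140-103596147 and chr10:103595491-103595498, in that order.
SH3PXD2B 7-mer with A: ccagccctgatctataGTGAGAA
SH3PXD2B 8-mer: ggatgtgaggggaggGGTGAGAA
SH3PXD2A upstream 8-mer: gggtcaggtggttggGGTGAGAA
SH3PXD2A downstream 8-mer: agtgagaggcacgttGGTGAGAA

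**Figure D1:**
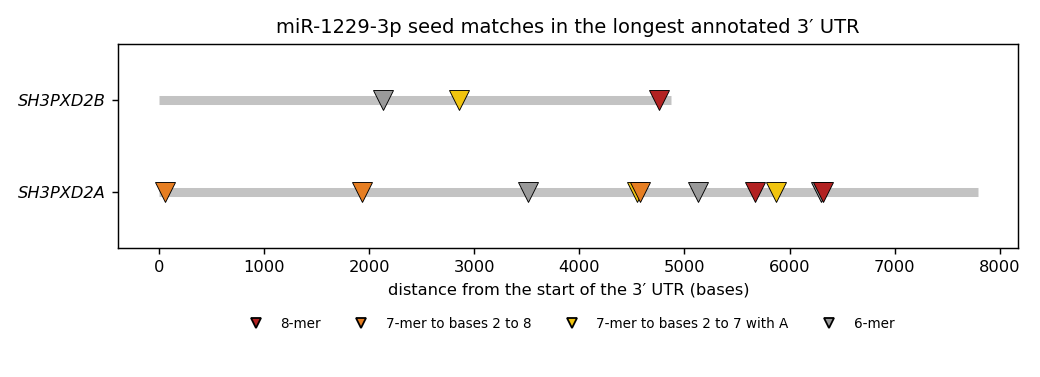
Positions of matches to the miR-1229-3p seed along the longest annotated 3′ UTR of SH3PXD2A and SH3PXD2B, in bases from the start of the UTR, with colours for the 4 kinds of match. SH3PXD2A holds 7 matches of 7 or 8 bases spread over 7789 bases, and SH3PXD2B holds 2 in 4870 bases, its 8-mer close to the end.

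The number of such matches has to be read against UTR length. Among 13778 genes with a 3′ UTR of at least 50 bases, 22.6% held at least 1 match of 7 or 8 bases and 4.62% held an 8-mer. Of the 1340 genes whose UTR was within 20% of the length of SH3PXD2B, 47.7% held at least 1 and 16.6% held at least as many. SH3PXD2A stood further out. Only 4 of the 13778 genes held 7 or more, and of the 539 genes within 20% of its length 0.186% did, which is SH3PXD2A itself. Of the other members, NCK1 held a single 7-mer with A, WASL and MMP14 held a 6-mer only, and CTTN, SRC, NCK2 and MMP2 held no match. In all, 3 of the 9 members (33.3%) held a match of 7 or 8 bases. A match of these letters is a description, and which 3′ UTR SH-Sy5y cells use was not measured.

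The libraries held 17423969 to 28192775 estimated counts. One of them, 20 nM replicate 3, stood apart, at 47.4 on the first principal component (30.4% of the variance) against -17.1 to 7.72 for the other 8. It held the highest value of all 9 libraries in 30.8% of all genes and the lowest in 28.9%. Among the members it was the highest for CTTN, SRC and NCK2 and the lowest for NCK1 and WASL. Where it set a member apart, the result is given with and without it. Of 12 noradrenergic neuroblastoma markers all were in the table and 11 were above 1 CPM (counts scaled to library size with TMM factors). Their summed level was 6940 to 7010 CPM in Ctrl., 7240 to 7740 CPM at 10 nM and 6860 to 8080 CPM at 20 nM. TH, which encodes the enzyme that defines catecholamine synthesis, was at 0.598 CPM in Ctrl., 0.521 CPM at 10 nM and 0.154 CPM at 20 nM (group means), with a log2 fold change of -2.02 at 20 nM (edgeR adjusted p = 0.0462). It had the lowest mean of the 12 (0.424 CPM over all libraries), so this value rests on few counts. Its call was not followed through the alternative fits. Of 15 mesenchymal markers 14 were in the table, with sums of 1580 to 1770, 1560 to 1770 and 1370 to 1730 CPM in the same order, and PRRX1, a transcription factor that defines that state, was not among them. Immune and endothelial markers (2 of 7 in the table) summed to 3.93 to 5.14 CPM over all libraries and epithelial markers (3 of 5) to 1.12 to 2.88 CPM.

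SH3PXD2B, which encodes an adaptor with fewer SH3 domains than its relative Tks5 (gene at chr5:172325000-172454525, minus strand), was lower in every mimic library than in every control. Its level was 154, 155 and 152 CPM in the Ctrl. libraries, then 109, 116 and 116 CPM at 10 nM, and 95.9, 96.7 and 110 CPM at 20 nM. The control libraries lay within a few CPM of each other, and the 10 nM and 20 nM groups overlapped only through 20 nM replicate 3. In the edgeR fit the log2 fold change was -0.45 (SE 0.0393) at 10 nM and -0.69 (SE 0.0458) at 20 nM, which left 73.1% and 62.2% of the control level. The step from 10 nM to 20 nM was -0.23 (SE 0.0431) on the log2 scale, smaller than that from 0 to 10 nM. Without 20 nM replicate 3 the log2 fold changes were -0.43 and -0.67. Mimic libraries all below the controls were found for 9.9% of all genes at 10 nM and for 13.7% at 20 nM. Since these contrasts chose the gene, nothing is read from that share.

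SH3PXD2A encodes Tks5, the longer relative (gene at chr10:103594027-103855584, minus strand). Its levels were 143, 134 and 154 CPM in Ctrl., 139, 118 and 127 CPM at 10 nM, and 115, 108 and 114 CPM at 20 nM. All 3 of the 20 nM libraries were below all 3 of the controls and below all 3 at 10 nM, whereas the 10 nM group overlapped the controls. Each mimic library was lower than the control of the same number, in 3 of 3 pairs at both concentrations. The log2 fold change was -0.17 (SE 0.065, edgeR adjusted p = 0.277) at 10 nM and -0.36 (SE 0.075, edgeR adjusted p = 0.00747) at 20 nM, or 78.0% of the control level. With the concentration as a number over all 9 libraries (the dose trend, per 20 nM) it was -0.36 (SE 0.0663, edgeR adjusted p = 0.00231). The 20 nM call was lost without 20 nM replicate 2, where the log2 fold change was -0.32 (edgeR adjusted p = 0.0553), and it held without 20 nM replicate 3 (-0.37, edgeR adjusted p = 0.00351). The dose trend held in all 15 alternatives, with an adjusted p of at most 0.0205.

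**Figure D2:**
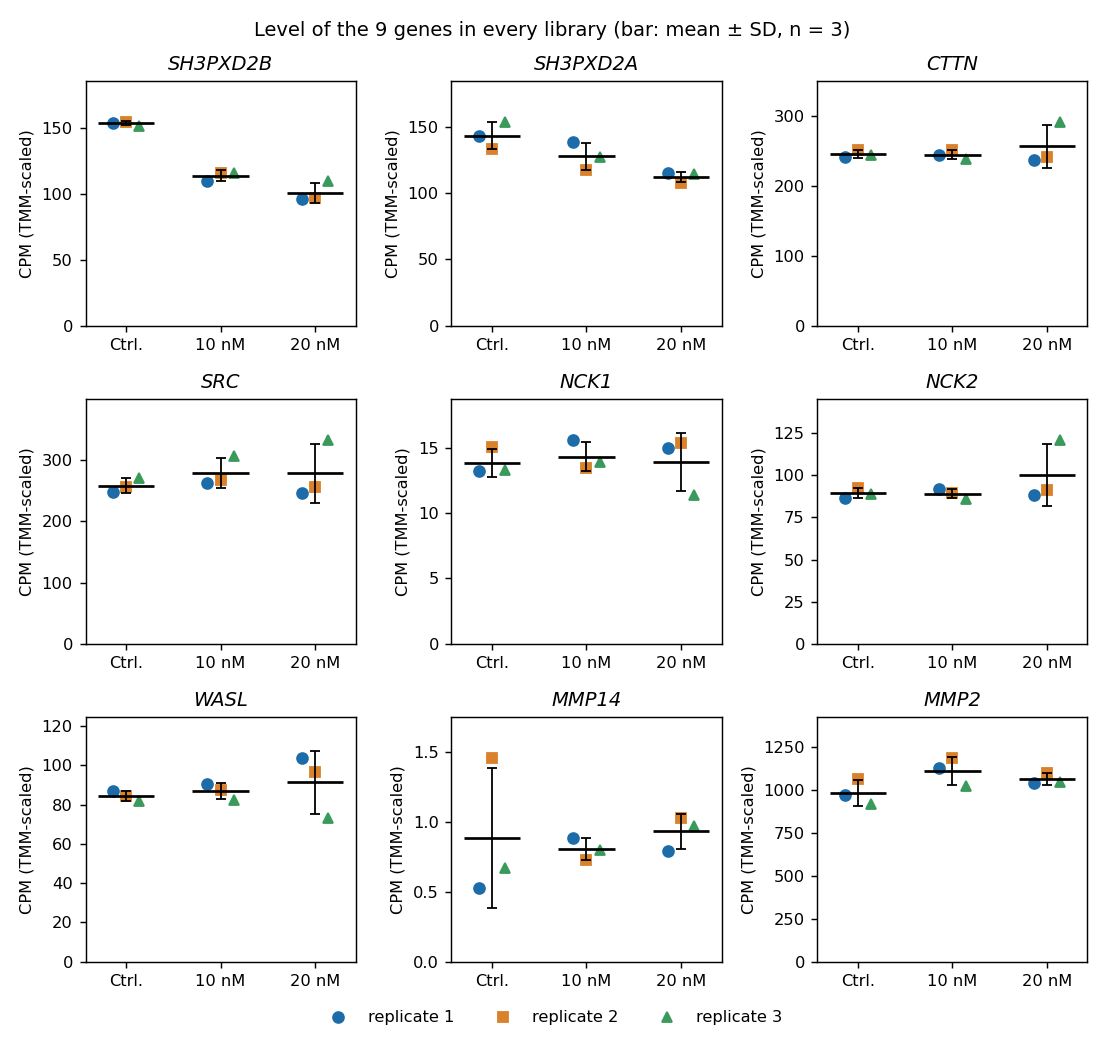
Level of each of the 9 genes in CPM (vertical axes from 0, scaled by TMM) in the Ctrl., 10 nM and 20 nM groups, with 1 point per library, coloured by replicate number, and the mean ± SD of 3 libraries. SH3PXD2B is lower in all 6 mimic libraries than in all controls, SH3PXD2A in all 3 libraries at 20 nM, and 20 nM replicate 3 lies away from the other libraries of its group for CTTN, SRC, NCK1, NCK2 and WASL.

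Since the Tks adaptors can carry out related tasks, their levels were also set side by side per kb of canonical transcript. Together they summed to 31.5 to 32.9 CPM per kb in Ctrl., 25.2 to 26.1 CPM per kb at 10 nM and 21.8 to 24.0 CPM per kb at 20 nM. SH3PXD2B made up 61.4%, 63.1% and 59.3% of that sum in the Ctrl. libraries, 53.8%, 59.3% and 57.4% at 10 nM, and 55.2%, 57.0% and 58.6% at 20 nM. On this scale SH3PXD2B remained the larger portion of the pair in every library, and its share was lower at 20 nM than in any control. The order depends on the annotated lengths, 7779 and 11501 bases. In CPM the means of SH3PXD2B and SH3PXD2A were 153 and 144 in Ctrl., 114 and 128 at 10 nM, and 101 and 112 at 20 nM. In every mimic library SH3PXD2A had the higher CPM, and which transcripts the cells use was not measured. No test is given for this share, because SH3PXD2B enters it.

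SRC and CTTN did not pass the test in any comparison. SRC, the kinase that phosphorylates Tks adaptors and cortactin, stood at 248, 256 and 272 CPM in Ctrl., 262, 267 and 307 CPM at 10 nM, and 246, 256 and 333 CPM at 20 nM. In each group replicate 3 was the highest. The log2 fold change was 0.06 at 10 nM (95% interval -0.033 to 0.149, edgeR adjusted p = 0.609) and -0.08 at 20 nM (95% interval -0.188 to 0.02, edgeR adjusted p = 0.337). The sign at 20 nM changed with the model, the value being 0.11 with no surrogate variable and 0.0954 with the replicate block, and the mean at 20 nM (278 CPM) was above that of Ctrl. (259 CPM). It was -0.0466 without 20 nM replicate 3 (edgeR adjusted p = 0.476). CTTN encodes cortactin, which binds branched actin and marks the invadopodium core. It stood at 242, 252 and 245 CPM in Ctrl., 245, 251 and 239 CPM at 10 nM, and 237, 242 and 292 CPM at 20 nM. Apart from 20 nM replicate 3, all 8 libraries lay between 237 and 252 CPM. Its log2 fold change was -0.04 at 10 nM (95% interval -0.118 to 0.048, edgeR adjusted p = 0.756) and -0.05 at 20 nM (95% interval -0.146 to 0.045, edgeR adjusted p = 0.55). For CTTN, too, the 20 nM value was above 0 with no surrogate variable (0.0635) and with the replicate block (0.0603), and the means were 257 CPM at 20 nM and 246 CPM in Ctrl. The value was -0.0396 without 20 nM replicate 3 (edgeR adjusted p = 0.551). The table gives CTTN under the identifier ENSG00000288401, and it was matched to the annotation by its symbol.

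NCK1 and NCK2 are SH2 and SH3 adaptors that link phosphorylated Tks proteins to N-WASP, and neither passed the test in any comparison. NCK1 was at 13.2, 15.1 and 13.3 CPM in Ctrl., 15.6, 13.5 and 13.9 CPM at 10 nM, and 15.0, 15.4 and 11.4 CPM at 20 nM. NCK2 was at 86.8, 92.6 and 88.6 CPM, then 92.0, 89.5 and 86.1 CPM, then 88.1, 91.4 and 121 CPM. In 20 nM replicate 3 the adaptors thus went opposite ways, and the ratio of NCK2 to NCK1 per kb was 17.8 there against 9.80 to 11.1 in the other 8 libraries. The log2 fold change at 20 nM was 0.17 for NCK1 (95% interval -0.028 to 0.361, edgeR adjusted p = 0.307). For NCK2 it was -0.01 (95% interval -0.125 to 0.109, edgeR adjusted p = 0.952), against 0.17 with no surrogate variable and 0.16 with the replicate block, and the means were 100 CPM at 20 nM and 89.3 CPM in Ctrl. Without 20 nM replicate 3 the values were 0.14 for NCK1 (edgeR adjusted p = 0.36) and 0.0073 for NCK2 (edgeR adjusted p = 0.94).

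WASL encodes N-WASP, which switches on the Arp2/3 complex to branch actin. It stood at 87.1, 84.2 and 82.0 CPM in Ctrl., 90.3, 87.6 and 82.3 CPM at 10 nM, and 104, 96.8 and 73.3 CPM at 20 nM. At 20 nM replicates 1 and 2 were above all controls and replicate 3 was below them all, so the group spanned the controls. The fit, which included a surrogate variable, gave a log2 fold change of 0.29 at 20 nM (SE 0.0441, edgeR adjusted p = 0.00114). Between 10 nM and 20 nM it was 0.20 (SE 0.042, edgeR adjusted p = 0.0253), and in the dose trend 0.22 (SE 0.0452, edgeR adjusted p = 0.00501). At 10 nM it was 0.09 (SE 0.0394, edgeR adjusted p = 0.339). These calls depended on how the spread was modelled. When the surrogate variable was exchanged for a block of replicate numbers, the 20 nM value was 0.10 (edgeR adjusted p = 0.442), the dose trend 0.10 (edgeR adjusted p = 0.403) and the step from 10 nM to 20 nM 0.06 (edgeR adjusted p = 0.744). Without 20 nM replicate 3 the 20 nM value was 0.25 (edgeR adjusted p = 0.00313) and the dose trend 0.26 (edgeR adjusted p = 0.0017). Without 20 nM replicate 1 they were 0.19 (edgeR adjusted p = 0.0571) and 0.08 (edgeR adjusted p = 0.346). The step from 10 nM to 20 nM was also lost without any one of 10 nM replicates 1, 2 and 3 (edgeR adjusted p = 0.0821, 0.0551 and 0.122) or of 20 nM replicates 1 and 2 (edgeR adjusted p = 0.395 and 0.116).

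The proteases differed widely in level. MMP14 was barely detected, with 13 to 27 estimated counts per library. It stood at 0.53, 1.46 and 0.67 CPM in Ctrl., 0.89, 0.73 and 0.80 CPM at 10 nM, and 0.80, 1.03 and 0.97 CPM at 20 nM. The 95% interval of its log2 fold change ran from -0.762 to 0.93 at 20 nM (edgeR adjusted p = 0.93). At this depth neither a fall nor a rise within that interval is excluded. MMP2 was abundant, at 972, 1067 and 917 CPM in Ctrl., 1127, 1188 and 1022 CPM at 10 nM, and 1044, 1103 and 1045 CPM at 20 nM. Every mimic library was above the control of the same number, a count given with no share over all genes, and the groups overlapped. Its log2 fold change was 0.18 at 10 nM (95% interval 0.058 to 0.306, edgeR adjusted p = 0.221) and 0.13 at 20 nM (95% interval -0.008 to 0.276, edgeR adjusted p = 0.253).

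TIMP2, the inhibitor that also bridges MMP14 and the MMP2 proenzyme, had a mean level of 885 ± 31.5 CPM (SD, n = 3) in Ctrl., of 870 ± 44.4 CPM at 10 nM and of 793 ± 25.5 CPM at 20 nM. The log2 fold change at 20 nM was -0.12 (edgeR adjusted p = 0.148), and that of the dose trend -0.13 (edgeR adjusted p = 0.088). The ratio of MMP2 to TIMP2 per kb was 1.12, 1.22 and 1.12 in Ctrl., 1.28, 1.42 and 1.28 at 10 nM, and 1.32, 1.46 and 1.41 at 20 nM. All 6 mimic libraries were above all 3 controls. An exact two-sided permutation test gave p = 0.1 for each concentration, the smallest that 3 libraries against 3 allow, and 0.1 after adjustment over both.

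Of the 8 members other than SH3PXD2B, edgeR thus called 0 at 10 nM, where 0.649% of all genes were called. DESeq2 also called 0. At an unadjusted edgeR p under 0.05 there were 3 (SH3PXD2A lower, WASL and MMP2 higher). The share of all genes at that unadjusted threshold was not counted, so nothing is read from these 3. At 20 nM edgeR and DESeq2 each called 2, SH3PXD2A lower and WASL higher, where edgeR called 13.9% of all genes (7.8% higher and 6.08% lower). Between 10 nM and 20 nM 1 of the 8 was called, WASL, against 2.79% of all genes (1.91% higher), and the dose trend called the same 2 as the 20 nM comparison, against 17.6% of all genes (9.92% higher and 7.64% lower). With the replicate block, SH3PXD2A was the only call at 20 nM and in the dose trend. At 10 nM none of the 8 had groups that did not overlap, which 20% of all genes had. At 20 nM SH3PXD2A was the only one (28.9% of all genes), and likewise between 10 nM and 20 nM (14.2% of all genes).

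**Figure D3:**
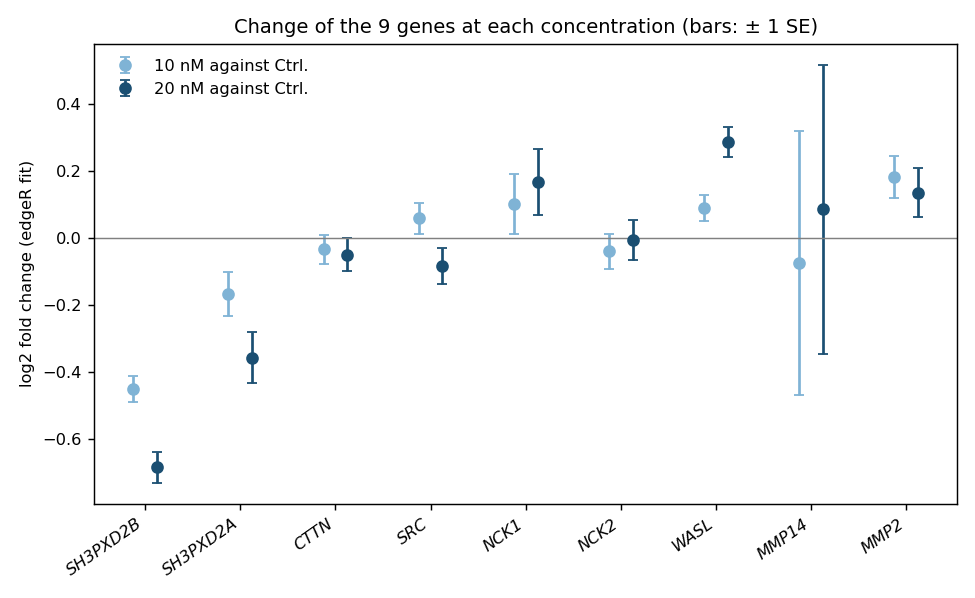
Log2 fold change of each of the 9 genes at 10 nM (light) and 20 nM (dark) against Ctrl. from the edgeR fit, with bars of ± 1 SE. SH3PXD2B and SH3PXD2A lie below 0 at both concentrations, WASL reaches 0.29 at 20 nM in this fit (0.10 with the replicate block), and the wide bars of MMP14 go with its 13 to 27 counts per library.

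Per kb of canonical transcript, the scale on which genes can be set against each other, the members covered a range of about 3 orders of magnitude. In Ctrl. the order of mean levels was MMP2 (280 ± 22.0 CPM per kb, SD, n = 3), CTTN (75.8 ± 1.7), SRC (55.7 ± 2.6), NCK2 (33.5 ± 1.1), SH3PXD2B (19.7 ± 0.19), WASL (19.3 ± 0.58), SH3PXD2A (12.5 ± 0.88), NCK1 (3.11 ± 0.24) and MMP14 (0.24 ± 0.14). TIMP2 came next to MMP2, at 242 ± 8.6 CPM per kb. Only SH3PXD2B and WASL were neighbours whose controls overlapped, at 19.5 to 19.9 and 18.8 to 20.0 CPM per kb. At 10 nM SH3PXD2B (14.1 to 14.9 CPM per kb) lay below WASL (18.9 to 20.7 CPM per kb), and at 20 nM at 12.3 to 14.1 against 16.8 to 23.8 CPM per kb. On this scale SH3PXD2B stayed above SH3PXD2A, which was at 9.39 to 10.0 CPM per kb at 20 nM. MMP2 exceeded MMP14 by 770-fold to 1930-fold per kb, a ratio whose spread comes with the few counts of MMP14.

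**Figure D4:**
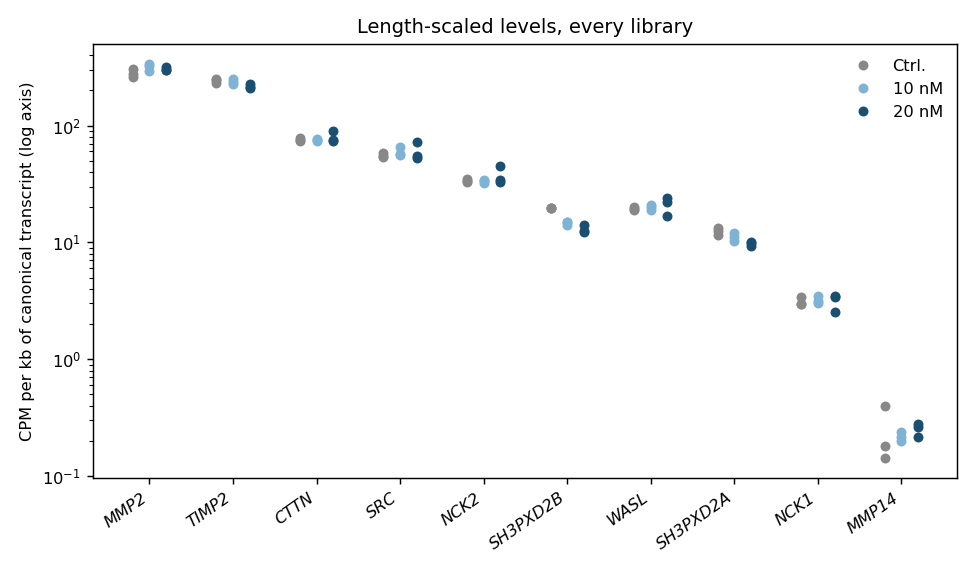
Levels of the 9 genes and TIMP2 in CPM per kb of canonical transcript on a log axis, with 1 point per library and 1 colour per group, in the order of the Ctrl. means. SH3PXD2B and WASL overlap in Ctrl. (19.5 to 19.9 and 18.8 to 20.0 CPM per kb) and separate at both concentrations of the mimic.

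The genes whose log2 CPM followed that of SH3PXD2B most closely over the 9 libraries, among 10508 genes with a mean of at least 10 CPM, were PTPN1 (Pearson r = 0.985), LUC7L (r = 0.985), HIPK2 (r = 0.982), ASB1 (r = 0.978) and IGFBPL1 (r = 0.978). The 9 libraries share 3 groups, so r reflects mainly the steps between them and is given as a description. PTPN1, a tyrosine phosphatase known to act on SRC and cortactin, went from 73.4 to 78.7 CPM in Ctrl. to 59.6 to 62.2 CPM at 10 nM and 51.7 to 59.9 CPM at 20 nM. HIPK2, a nuclear kinase, went from 121 to 135 CPM to 76.6 to 87.4 CPM and 65.0 to 88.0 CPM. IGFBPL1 was at 525 to 581 CPM in Ctrl. and at 247 to 279 CPM at 20 nM. A match of 7 or 8 bases to the seed was found in 4 of these 5 genes, beside 22.6% of all genes. HIPK2 held 2 8-mers, ASB1 an 8-mer and a 7-mer, PTPN1 and IGFBPL1 a 7-mer with A each, and LUC7L none. Among genes within 20% of the UTR length, the share with a match was 76.6% for HIPK2 and 54.9% for ASB1. It was 29.2% for IGFBPL1, 27.7% for PTPN1 and 14.5% for LUC7L. Since the 5 were picked for following the fall of SH3PXD2B, nothing is read from this count. SH3PXD2A ranked 327 in this order (r = 0.808), and the other members lay between -0.553 and -0.0343.

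A wider list of 149 invadopodia genes, grouped by role, was counted in the same fits. Of these, 136 were in the table and 13 were not. At 10 nM edgeR called 2 of the 136 (1.47%, against 0.649% of all genes), both lower (0.428% of all genes). They were PTPN1 (-0.33, edgeR adjusted p = 0.00412) and WIPF2, a partner of N-WASP (-0.27, edgeR adjusted p = 0.0314), and with the replicate block there were 0. At 20 nM it called 35 (25.7%, against 13.9%), 20 higher and 15 lower. That count was 16 with no surrogate variable, 37 with the replicate block (25 higher and 12 lower) and 23 without Ctrl. replicate 3. Without 20 nM replicate 2 it was 22, where 1074 of all genes were called in place of 2074. Without 20 nM replicate 3 it was 47, where 2656 of all genes were called. Over the 15 alternatives the calls among all genes ran from 954 to 2656. The dose trend called 44 (32.4%, against 17.6%), 27 higher and 17 lower. This became 20 with no surrogate variable and 36 with the replicate block (25 higher and 11 lower). Without 20 nM replicate 2 it was 24, where 1369 of all genes were called in place of 2624. The median log2 fold change of the 136 in the dose trend was 0.01, and that of all genes -0.002. The shares of all genes, here and for the role groups, were not matched for expression level. Of the 14943 genes, 13910 reached 1 CPM in 3 libraries. Whether level bears on the higher shares of the list was not tested. The role groups are described next from the dose trend. The values of named genes are log2 fold changes per 20 nM.

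Among the protein partners of the Tks adaptors and other adaptors, 6 of 13 rose (46.2%) and 0 fell, with a median of 0.12. Over all genes 17.6% were called in either direction and 9.92% were called higher. DESeq2 called 5 of the 13 in the dose trend, and edgeR called 3 at 20 nM (23.1%, against 13.9% of all genes). ADAM12, a membrane metalloprotease that Tks5 binds, was at 126 to 166 CPM in Ctrl., 148 to 169 CPM at 10 nM and 235 to 267 CPM at 20 nM. Its value was 0.78 (SE 0.114, edgeR adjusted p = 0.000405), most of it between 10 nM and 20 nM. AFAP1, an actin filament protein that binds SRC, rose by 0.28 (edgeR adjusted p = 0.00133), and CYBA, the p22phox subunit of NADPH oxidases, by 0.34 (edgeR adjusted p = 0.00397). The level of CYBA was 108 CPM in 20 nM replicate 3 against 47.6 to 65.1 CPM in the other 8 libraries, and its call was lost with no surrogate variable (0.60, edgeR adjusted p = 0.051). The call held without 20 nM replicate 3 (0.28, edgeR adjusted p = 0.0238).

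The matrix proteases and inhibitors held 2 of 12 that rose, ADAM9 and ADAM17, and 0 that fell (16.7% called, near the 17.6% of all genes). ADAM9 was at 29.7 to 30.8 CPM in Ctrl., 30.8 to 32.5 CPM at 10 nM and 49.6 to 56.3 CPM at 20 nM (0.84, SE 0.117, edgeR adjusted p = 0.000318). ADAM17, the sheddase of many growth factor precursors, rose by 0.53 (edgeR adjusted p = 0.00081). As with ADAM12, the 10 nM libraries of ADAM9 lay near the controls, with a log2 fold change of 0.09 (edgeR adjusted p = 0.501) there and 0.87 (edgeR adjusted p = 4.16e-06) at 20 nM. For SH3PXD2B the values were -0.45 and -0.69, and the difference in course between these genes was not tested. In the group that delivers MMP14 to the membrane, 2 of 20 rose and 1 fell (15% called, below the 17.6% of all genes). EXOC1, a subunit of the exocyst, was at 57.0 to 57.8 CPM in Ctrl., 47.3 to 50.1 CPM at 10 nM and 37.8 to 45.4 CPM at 20 nM (-0.46, edgeR adjusted p = 0.000258), and RAB40B, a small GTPase for the traffic of MMP2, rose by 0.44 (edgeR adjusted p = 0.00123).

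Of 28 genes of branched and bundled actin, 4 rose and 5 fell (32.1% called). ARPC4, a subunit of the Arp2/3 complex that N-WASP switches on, rose by 0.46 (edgeR adjusted p = 0.00291) and EVL, an Ena/VASP protein, fell by 0.33 (edgeR adjusted p = 0.000715). ARPC1B, another subunit, rose by 0.23 (edgeR adjusted p = 0.00573, lost with no surrogate variable at 0.0527), and by 0.19 without 20 nM replicate 3 (edgeR adjusted p = 0.0256). The formin DIAPH1 fell by 0.23 (edgeR adjusted p = 0.00263, and 0.0803 with the replicate block). Of 21 kinases, phosphatases and phosphoinositide enzymes, 4 rose and 6 fell (47.6% called). PTPN1 fell by 0.51 (edgeR adjusted p = 2.79e-05) and PAK1, a kinase downstream of RAC and CDC42, by 0.35 (edgeR adjusted p = 0.00263). ABL1, a kinase that phosphorylates cortactin, fell by 0.24 (edgeR adjusted p = 0.00695, and 0.138 with the replicate block). SSH1, the phosphatase that activates cofilin, rose by 0.56 (edgeR adjusted p = 0.000142), and the receptor EGFR by 0.39 (edgeR adjusted p = 0.00025).

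Of 17 integrins and adhesion proteins, 5 rose and 1 fell (35.3% called). ITGA6, which pairs to bind laminin, was at 5.14 to 5.80 CPM in Ctrl. and 9.21 to 11.6 CPM at 20 nM (0.85, edgeR adjusted p = 0.000213). ITGB5 rose by 0.50 (edgeR adjusted p = 0.00108). The hyaluronan receptor CD44, also counted among the mesenchymal markers, went from 1.34 to 1.38 CPM to 1.75 to 2.53 CPM and 2.92 to 3.40 CPM (1.28, edgeR adjusted p = 0.00109). Of those 14 mesenchymal markers the dose trend called 3 higher, CD44, NOTCH2 and LUM, and 0 lower (9.92% of all genes were called higher). Of the 12 noradrenergic markers it called 0 higher and 4 lower, TH among them (7.64% of all genes were called lower). Their part in the results above was not tested. Family relatives of the members gave 1 higher and 3 lower of 12 (33.3% called), among them FRK, a kinase related to SRC, which fell by 0.53 (edgeR adjusted p = 0.0053), and by 0.47 without 20 nM replicate 3 (edgeR adjusted p = 0.0156). Of 13 small GTPases and exchange factors, 3 rose and 1 fell (30.8% called).

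**Figure D5:**
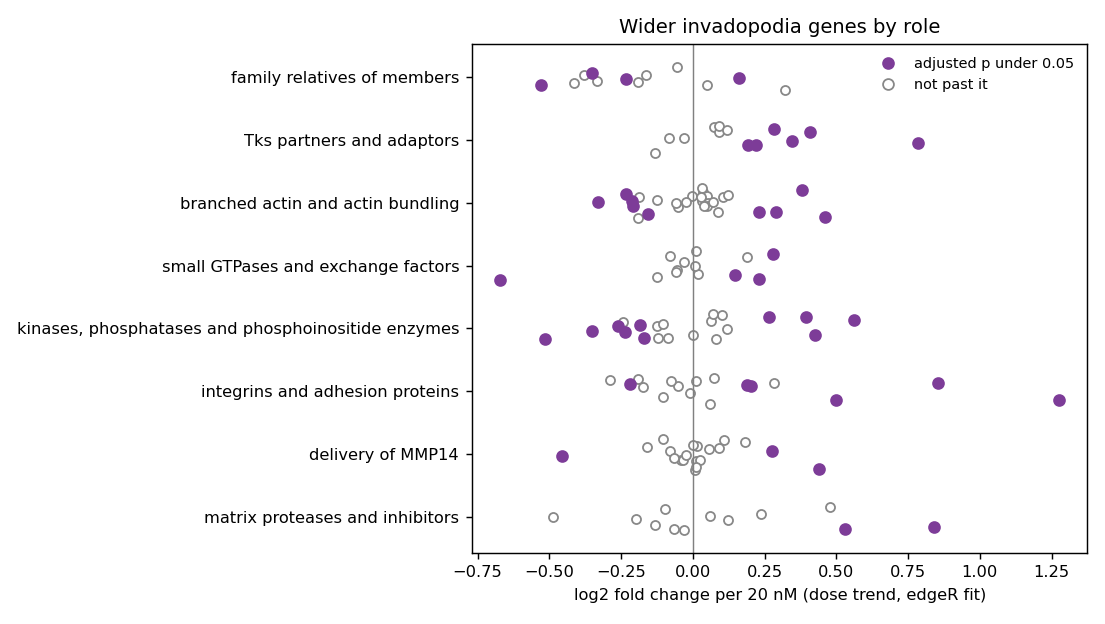
Log2 fold change per 20 nM (dose trend, edgeR) of the 136 genes of the wider list, 1 point per gene and 1 line per role, filled where the adjusted p is under 0.05. The filled points among Tks partners lie to the right of 0 (6 of 13), while those of the actin genes lie on both sides (4 higher and 5 lower of 28).

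Another 12 genes of the wider list that the naming rule selected in the dose trend lost the call when a single library was left out. They were LYN (0.16), MYO10 (0.38), DOCK1 (0.28), RHOU (0.23), ARF1 (0.15), SYNJ2 (0.27) and EXOC2 (0.28) among the higher, and MMP24 (-0.23), MMP15 (-0.35), LASP1 (-0.21), RHOB (-0.67) and ITGAV (-0.22) among the lower. Without 20 nM replicate 1 the log2 fold change and the edgeR adjusted p were -0.13 and 0.136 for MMP24, -0.23 and 0.195 for MMP15, -0.15 and 0.0842 for LASP1, and -0.44 and 0.103 for RHOB. For DOCK1 they were 0.20 and 0.0867 there, for RHOU 0.19 and 0.109, and for SYNJ2 0.22 and 0.0914. Without 20 nM replicate 2 the edgeR adjusted p was 0.193 for MMP15, 0.191 for LYN, 0.0656 for LASP1, 0.0827 for MYO10, 0.0541 for DOCK1, 0.127 for RHOU, 0.193 for ARF1, 0.145 for SYNJ2, 0.107 for ITGAV and 0.12 for EXOC2. Without Ctrl. replicate 1 it was 0.0575 for LYN, 0.154 for ARF1, 0.0972 for SYNJ2, 0.052 for ITGAV and 0.114 for EXOC2, and without Ctrl. replicate 2 it was 0.102 for RHOU and 0.0791 for ARF1. Without Ctrl. replicate 3 it was 0.128 for MMP15, 0.0727 for LYN, 0.082 for MYO10, 0.0847 for RHOB, 0.0656 for DOCK1, 0.138 for RHOU, 0.144 for ARF1, 0.0819 for ITGAV and 0.0865 for EXOC2. Without 10 nM replicate 1 it was 0.0605 for ARF1, and without 10 nM replicate 2 it was 0.0531 for MMP15, 0.0508 for RHOU and 0.0583 for ARF1. With the replicate block the edgeR adjusted p was 0.242 for MMP24, 0.201 for MMP15, 0.203 for LYN, 0.252 for LASP1, 0.0768 for RHOU, 0.0666 for ARF1 and 0.0505 for SYNJ2. In all of these the direction remained that of the full set of libraries.

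Seed matches were counted in the wider list as well, as a description. Of its 136 genes 33 (24.3%) held a match of 7 or 8 bases, beside 22.6% of all genes. Among those the dose trend called lower 7 of 17 held one (41.2%), among those called higher 6 of 27 (22.2%), and among those not called 20 of 92 (21.7%). The 7 lower genes were FRK, ENAH, EVL, PAK2, LIMK1, PTPN1 and ITGAV, and the 6 higher ones ADAM12, EGFR, PDGFRA, SSH1, RAB40B and ADAM9. ADAM12 and RAB40B held an 8-mer and rose, and EXOC1 held no match and fell. These shares were not matched for UTR length. Among genes within 20% of the UTR length, the share with a match was 14.2% (LIMK1) to 76.3% (FRK) for the lower genes. For the higher ones it was 30.9% (RAB40B) to 72.4% (SSH1). Whether the matches bear on the changes was not tested.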

How the data were processed

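Polyadenylated RNA of SH-Sy5y cells was measured in 9 libraries, 3 in each of 3 groups (Ctrl., 10 nM and 20 nM), which were taken with their replicate numbers from the sample titles. According to the study's methods, RNA of a pair of wells was pooled where possible. The authors quantified reads with salmon against GRCh38.p13 (Ensembl annotation 107), added them up per gene symbol and filtered low genes. The values the authors deposited are estimated counts for 14943 genes, of which 88.8% have a fractional part, and they were rounded before testing. Versions of salmon and edgeR used upstream are not given in the sources used here, and whether counting used strand is not given either, so near-identical copies, overlapping and antisense genes can exchange counts. The authors also deposited surrogate-variable-corrected log values and tables of their own comparisons (fold changes and p-values), which were not used.

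The edgeR quasi-likelihood test (edgeR 4.0.16, R 4.3.3, TMM) was fitted to all 9 libraries with the group, or the mimic concentration as a number (dose trend, per 20 nM), and 1 surrogate variable (sva 3.50.0). filterByExpr removed 0 genes. p-values were adjusted by Benjamini-Hochberg over all 14943 genes, with a threshold of 0.05. CPM are TMM-scaled. Each SE was derived from the fold change and its test statistic, and 95% intervals are the estimate ± 1.96 SE. This normal multiplier leaves out the limited degrees of freedom of the test, so the intervals are approximate and somewhat too narrow. The members and lists were chosen with earlier results of these data known. All members were named, then of each role list up to 3 higher and 3 lower genes called in the dose trend with the smallest adjusted p (mean level 1 CPM or more), the 5 genes most like SH3PXD2B, and TIMP2. ENAH, PAK2, LIMK1, PDGFRA, WIPF2, TH and the called mesenchymal markers were named after their values were seen. The other noradrenergic markers are not reported one by one here. The scripts were tested on simulated data. Totals of 17423969 to 28192775 per library set the counting error, and the median SD of log2 CPM within groups was 0.085 (Ctrl.), 0.092 (10 nM) and 0.18 (20 nM). Replicates of each group differed beyond sampling noise (chi-square per degree of freedom 4.78 to 47). Same-numbered libraries deviated together from their group means. The correlations were 0.217 to 0.259 between Ctrl. and 10 nM, 0.135 to 0.15 between Ctrl. and 20 nM and 0.0838 to 0.254 between 10 nM and 20 nM. The main fit holds no term for the replicate number, so its p-values leave out this pairing. The replicate block is the alternative that takes it in, and calls that it ended rest on the unpaired fit. The alternatives were DESeq2 1.42.0, its size factors in edgeR, a stricter filter (1 CPM in 3 libraries, 13910 genes), no surrogate variable, the replicate block, each library left out, and 2 surrogate variables, the last added after seeing the data. Genes were matched to GENCODE 44 by identifier (13160) or symbol (710), and 1073 had no match. miRNA sequence was taken from RefSeq.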

Additional observations from a re-analysis of the deposited data

How the results depend on the processing

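Every log2 fold change of SH3PXD2B stayed below 0 in all 15 alternatives, from -0.47 to -0.43 at 10 nM, from -0.71 to -0.61 at 20 nM, from -0.25 to -0.18 between 10 nM and 20 nM and from -0.70 to -0.61 in the dose trend. The 20 nM value moved beyond its spread with no surrogate variable (-0.61) and with the replicate block (-0.61). The number of members called at 20 nM, 2, became 1 with no surrogate variable, 1 with the block and 1 to 2 with a library left out, and so did that of the dose trend (1, 1 and 1 to 2). Between 10 nM and 20 nM the 1 call became 0, 0 and 0 to 1, and at 10 nM there were 0 in all alternatives. The wider list went from 2 to 0 (no surrogate variable), 0 (block) and 1 to 2 (library left out) at 10 nM. In the same order it went from 35 to 16, 37 and 22 to 47 at 20 nM. It went from 11 to 3, 6 and 4 to 13 between 10 nM and 20 nM. In the dose trend it went from 44 to 20, 36 and 24 to 47. Over all genes the calls ranged from 3 to 218 at 10 nM (97 as reported), 954 to 2656 at 20 nM (2074), 67 to 498 between 10 nM and 20 nM (417) and 1236 to 3318 in the dose trend (2624). TIMP2 passed the threshold in the dose trend in 2 alternatives, DESeq2 (adjusted p = 0.0347) and edgeR without 10 nM replicate 1 (adjusted p = 0.0485). Only members past no threshold changed sign. With no surrogate variable the value was 0.0635 for CTTN, 0.11 for SRC and 0.17 for NCK2 at 20 nM, 0.0707 for CTTN and -0.0458 for NCK1 between 10 nM and 20 nM, and 0.0636 for CTTN and 0.11 for SRC in the dose trend. With the replicate block it was 0.0009 for NCK2 at 10 nM, 0.0603 for CTTN, 0.0954 for SRC and 0.16 for NCK2 at 20 nM, 0.0667 for CTTN and -0.0518 for NCK1 between 10 nM and 20 nM, and 0.0603 for CTTN and 0.0955 for SRC in the dose trend. With a library left out, at 10 nM CTTN ranged from -0.0504 to 0.0011, NCK2 from -0.0804 to 0.0092 and MMP14 from -0.35 to 0.42, and at 20 nM NCK2 ranged from -0.0391 to 0.0668 and MMP14 from -0.17 to 0.58. Between 10 nM and 20 nM CTTN ranged from -0.0599 to 0.0151, NCK2 from -0.0275 to 0.0884 and MMP2 from -0.12 to 0.0033, and in the dose trend CTTN ranged from -0.039 to 0.0445, SRC from -0.0672 to 0.092 and MMP14 from -0.14 to 0.59. With 2 surrogate variables MMP14 was -0.0705 at 20 nM. The block ended 12 calls of named genes, 3 of WASL and 9 of the wider list in the dose trend, and both 10 nM calls of that list, PTPN1 and WIPF2. Pooling all annotated 3′ UTRs left 3 members with a match of 7 or 8 bases. The cause of these changes was not tested. The 13 to 27 counts of MMP14 limit it to large changes, and the stricter filter dropped it.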
